A study of Mus musculus with 5 samples.

Results

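The mitochondrial ribosomal proteins are the nuclear-encoded protein subunits of the ribosome inside mitochondria, and their transcripts were compared between wild-type and Dicer-deficient mouse embryonic stem cells. Members were all genes with an Mrpl or Mrps symbol followed by a digit that had an array probe set annotated to that symbol alone. They came to 77 of the 19938 genes measured, 48 with large subunit symbols (Mrpl) and 29 with small subunit symbols (Mrps). For the 8 members with more than 1 such probe set, the probe set of highest average signal stood for the gene. Mrpl53 had no probe set of its own, because its probe set also carries Ccdc142. Membership rests on the symbols alone, but this gene family was taken up with earlier results of these data known.

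Mitochondria translate the few proteins encoded by their own DNA, all of them core subunits of the respiratory chain and ATP synthase, on a dedicated ribosome. Its rRNAs come from mitochondrial DNA, while every protein is made in the cytosol and imported. Some of these proteins descend from the bacterial ribosome and others were added during mitochondrial evolution, and loss of single members is known to impair respiration.

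RNA from asynchronous cultures grown without feeder cells, in equal parts of serum plus LIF medium and N2B27+2i medium, was hybridised to Affymetrix whole-transcript arrays. There were 3 wild-type arrays and 2 arrays of Dicer-deficient cells, which lack the ribonuclease that makes mature microRNAs, and the series describes the cultures as biological replicates. Another Dicer-deficient culture and the early G1 samples were not analysed here. The labels name neither the cell line nor the Dicer allele, so the loss of Dicer and any further difference between these cells cannot be told apart. Values are the authors' normalized signals on a scale read as log2, where a change of 1 is a doubling. All samples are bulk RNA, so fewer cells of a type and less RNA per cell cannot be told apart.

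Median signals of the 5 arrays ran from 5.39 to 5.45. Precision is limited by having 3 and 2 arrays. Dicer1 read 8.84, 8.82 and 8.85 on the wild-type arrays and 7.20 and 6.84 on the Dicer-deficient arrays, the direction the labels give. Of 9 embryonic stem cell markers, 2 were called lower (adjusted p under 0.05 in limma's moderated test over all genes) and 0 higher, with 0 more higher at an unadjusted p under 0.05. The share of these markers called lower was 22.2%, against 8.60% of all genes. The markers' mean signal was 10.7 to 10.9 in wild-type and 10.6 to 10.8 in Dicer-deficient cells. The called ones were Tdgf1, which kept its call without each array in turn, and Esrrb (adjusted p = 0.0066; 0.091 at most, lost when wild-type array 2 or the second Dicer-deficient array was left out). By limma, 0 of 8 feeder fibroblast, 0 of 6 primitive endoderm and 0 of 3 mesoderm markers were called, and 1 of these, a mesoderm marker, was lower at an unadjusted p under 0.05. Pax6 was the 1 of 4 neuroectoderm markers called (log2 change 0.96). Mean signals of these other lists were 5.01 to 5.98 in wild-type and 5.04 to 6.02 in Dicer-deficient cells.

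Transcripts of the mitochondrial ribosome were mostly lower in Dicer-deficient cells, by amounts under 2-fold. In limma, 28 of the 77 members fell, 2 rose and 47 did not pass an adjusted p of 0.05. Among all genes tested the share called lower was 8.60% and the share called higher 8.48%, against 36.4% and 2.60% of the members. The fitted change was below 0 for 63 members and above 0 for 14. The median change over the members was -0.19 (quartiles -0.44 and -0.04), while the median over all genes was 0.01.

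Every member had a mean signal above the median of all probe sets (5.40). With genes at or below that median left out, 16.9% of the 11189 remaining genes were called lower, and 30 of the 77 members. Falls of at least 1.5-fold were called for 11 members, against 3.14% of all genes. Both Dicer-deficient values lay below all 3 wild-type values for 46 members, a pattern seen in 19.9% of all genes, and above them for 9, seen in 20.0% of all genes.

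**Figure D1:**
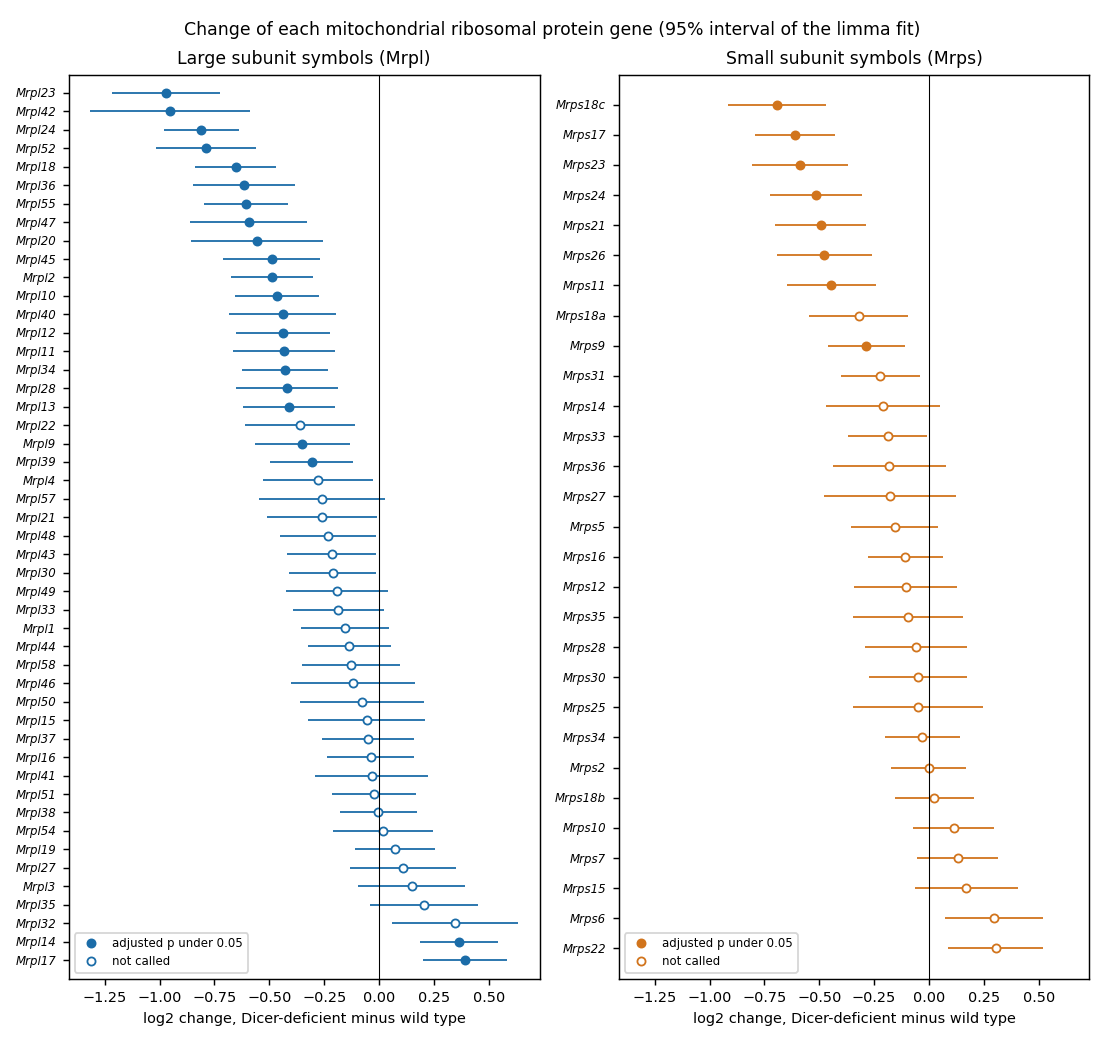
Log2 change of each of the 77 members (points) with the 95% interval of the limma fit (lines), large subunit symbols on the left and small on the right; filled points were called. Changes run from -0.97 for Mrpl23 to 0.39 for Mrpl17, and most points lie left of 0 in both panels.

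The number of calls depended on the arrays used, although no called member changed direction. Without each array in turn, between 7 and 26 members were called lower and between 0 and 2 higher, and 5 of the 30 calls were kept in every such fit. Those 5 were Mrpl23, Mrpl24, Mrpl52, Mrpl18 and Mrps17. Leaving out Dicer-deficient array 1 left 7 lower calls and leaving out Dicer-deficient array 2 left 8, each with 1 array in that group. The number was 20, 14 and 26 when wild-type array 1, 2 or 3 was left out. The same fits called 999, 768, 1560, 437 and 434 of all genes lower without wild-type arrays 1, 2 and 3 and Dicer-deficient arrays 1 and 2.

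**Figure D2:**
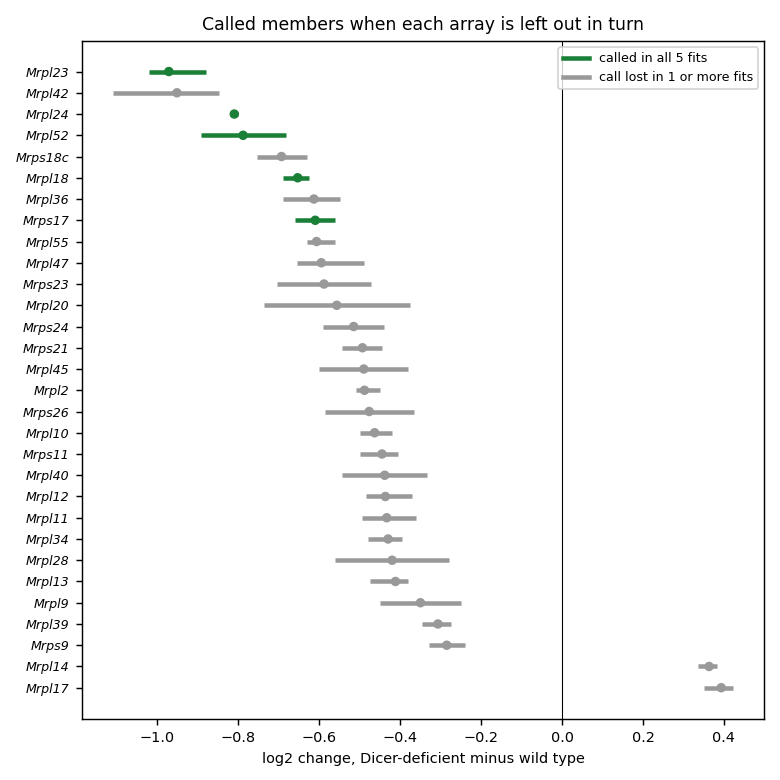
Log2 change of the 30 called members (points) and its lowest and highest value when each of the 5 arrays was left out (lines); green marks the 5 genes called in all 5 fits. Every line stays on its side of 0.

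Promoter sequence is shown for a choice of called members only, some with large changes and some with a searched motif close to the start. Mrpl42, with a change of -0.95, is not among them. RefSeq sequence of the GRCm38.p6 assembly was matched by gene identifier for 68 of the 77 members, with 74 annotated starts. The 250 bases before each start were searched on both strands for GCATGCGC, the core of the site of NRF1, a factor known to drive nuclear genes of mitochondria, and for CCGGAAG, an ETS site such as GABPA binds. AAGATGGC (YY1), CACGTG (the E-box of MYC, MAX and related factors) and TATAAA were searched too. The 80 bases just before the start follow, 5′ to 3′ on the strand of the gene, with matches in capitals; those without capitals hold none of the motifs in these 80 bases.
Mrpl23, chr7:142532952-142533031, plus strand: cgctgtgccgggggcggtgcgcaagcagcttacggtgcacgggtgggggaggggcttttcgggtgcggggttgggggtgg
Mrpl24, chr3:87919464-87919543, plus strand: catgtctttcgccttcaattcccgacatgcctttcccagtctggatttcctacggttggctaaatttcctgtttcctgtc
Mrpl52, chr14:54426829-54426908, plus strand, ETS site: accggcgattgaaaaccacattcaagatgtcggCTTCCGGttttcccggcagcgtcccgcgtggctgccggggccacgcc
Mrpl36, chr13:73330929-73331008, plus strand, E-box and then YY1: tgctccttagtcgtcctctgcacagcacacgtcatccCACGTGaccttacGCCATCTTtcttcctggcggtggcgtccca
Mrpl20, chr4:155802798-155802877, plus strand, E-box: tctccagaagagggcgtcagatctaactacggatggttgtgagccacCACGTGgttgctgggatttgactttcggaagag
Mrps26, chr2:130563677-130563756, plus strand, ETS site: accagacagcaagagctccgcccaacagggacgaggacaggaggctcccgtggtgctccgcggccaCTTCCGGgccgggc
Mrpl9, chr3:94443256-94443335, plus strand, NRF1 core on both strands, overlapping: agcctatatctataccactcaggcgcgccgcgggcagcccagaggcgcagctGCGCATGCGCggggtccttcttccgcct
Mrpl17, chr7:105811088-105811167, minus strand, NRF1 core: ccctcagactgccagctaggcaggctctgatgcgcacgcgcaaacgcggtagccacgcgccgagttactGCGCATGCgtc

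The ETS letters were in 23.0% of the members' promoters and 6.91% of all promoters in the table, the NRF1 core in 10.8% and 2.26%, the YY1 letters in 5.41% and 1.56%, the E-box in 9.46% and 6.02% and TATAAA in 6.76% and 12.4%. Counted by gene, the E-box was in 5 of 68 members and in 1854 of 27025 genes. The 3 starts of Mrpl2 count 3 times in the members' share of promoters. No test was made of these shares. The promoter of Mrpl17, which rose, holds the NRF1 core 11 bases before the start, and that of Mrpl9, which was called lower, holds it 28 and 26 bases before. Members not called, whose sequence is not shown, held matches about as close. Among them were Mrpl33 (NRF1 core, 12 bases before), Mrps22 (ETS, 11 bases) and Mrpl43 (ETS, 12 bases). The E-box was in 4 of 27 members called lower (Mrpl2, with 3 overlapping starts, Mrpl20, Mrpl36 and Mrps18c) and in 1 of the 41 others (Mrpl37). ETS letters were in 5 of 29 promoters of members called lower and 12 of 45 promoters of the others. A match is only a match of letters.

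The question of whether the large subunit differed from the small one was addressed first by counts. Of 48 large subunit members, 20 fell, 2 rose and 26 were not called, with a median change of -0.25. Of 29 small subunit members, 8 fell, 0 rose by limma and 21 were not called, with a median of -0.16. At an unadjusted p under 0.05, 2 small subunit members were higher. The shares called lower were 41.7% and 27.6%. They were nearly equal without Dicer-deficient array 2, a fit with 1 array in that group, but not without array 1. The medians were -0.27 and -0.15 without Dicer-deficient array 2, but -0.17 and -0.17 without Dicer-deficient array 1.

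The difference between the subunits lay outside the wild-type spread on only 1 of the 2 Dicer-deficient arrays. Relative to each gene's wild-type mean, the large subunit median was 0.05, 0.04 and -0.09 on the wild-type arrays and -0.27 and -0.17 on the Dicer-deficient arrays. The small subunit median was 0.05, 0.00 and -0.06 on the wild-type arrays and -0.15 and -0.17 on the Dicer-deficient arrays. Both subunits were thus lower on each Dicer-deficient array than on any wild-type array, while the median over all genes stayed between -0.01 and 0.01 on all 5. Large minus small was 0.00, 0.04 and -0.03 on the wild-type arrays and -0.12 and -0.005 on the Dicer-deficient arrays, so the second Dicer-deficient array lay within the wild-type range. The difference of the fitted medians was -0.09, and -0.005 without Dicer-deficient array 1.

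**Figure D3:**
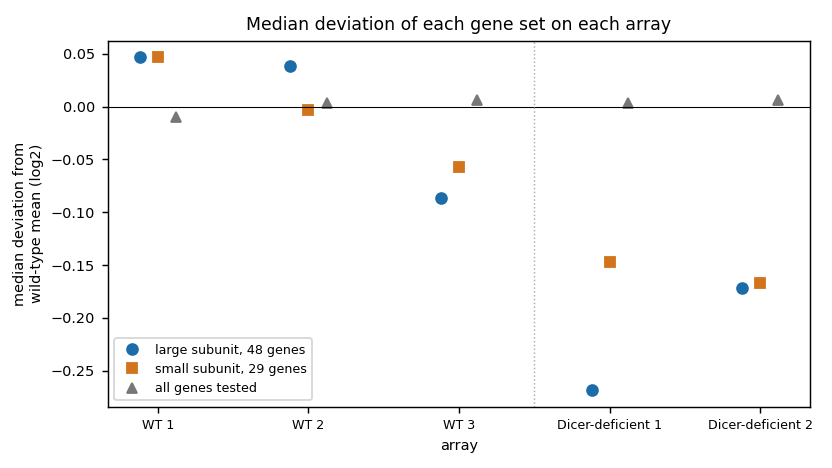
Median deviation from each gene's wild-type mean (log2) on each of the 5 arrays, for the 48 large subunit genes, the 29 small subunit genes and all genes tested. Both subunits lie lowest on the Dicer-deficient arrays, and they separate from each other on Dicer-deficient array 1 (-0.27 and -0.15) but hardly on array 2 (-0.17 and -0.17).

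Mrps30 and Mrps18a carry the small subunit prefix but belong to proteins that structures place in the large subunit, and Mrps36 belongs to the alpha-ketoglutarate dehydrogenase complex. With these placed by position, 20 of 50 large and 8 of 26 small subunit genes were called lower, and the medians were -0.25 and -0.13. Mrps30 read 7.66, 7.52 and 7.43 on the wild-type arrays and 7.42 and 7.55 on the Dicer-deficient arrays, which overlapped. Mrps36 read 5.95, 5.61 and 5.86 against 5.64 and 5.61, also overlapping, and its second probe set read lower by 0.23 on the log2 scale.

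Members were also divided by descent as in the mitoribosome nomenclature, and no test compared the divisions. Mrps18a and Mrps18b, though related to a bacterial protein, were counted as mitochondria-specific. Of 46 of bacterial origin, 21 fell and 2 rose, with a median of -0.27. Of 30 mitochondria-specific members, 7 fell and 0 rose by limma (1 was higher at an unadjusted p under 0.05), with a median of -0.16. The shares called lower were 45.7% and 23.3%. They came close to each other without Dicer-deficient array 2, a fit with 1 array in that group, but less so without array 1. The medians were -0.27 and -0.22 without Dicer-deficient array 2, and -0.23 and -0.13 without Dicer-deficient array 1. Within the large subunit, 15 of 30 bacterial-type and 5 of 18 mitochondria-specific members fell. Those shares came close to each other without Dicer-deficient array 1, but less so without array 2. Within the small subunit the counts were 6 of 16 and 2 of 12, with medians of -0.13 and -0.14, and without Dicer-deficient array 2 they were 1 of 16 and 2 of 12.

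The proteins around the exit of the polypeptide tunnel, where the growing chain leaves the large subunit towards the inner membrane, held the largest fall and the largest rise. This and the next 3 groupings by place in the ribosome were formed after the values were seen, and describe them only. Mrpl23, the counterpart of a bacterial protein that receives chaperones and targeting factors at the tunnel exit, read 9.52, 9.24 and 9.25 in wild-type cells and 8.41 and 8.32 in Dicer-deficient cells. All wild-type values stood above both Dicer-deficient values. The level went from 9.34 ± 0.159 (SD, n = 3) to 8.37 ± 0.0636 (SD, n = 2), a log2 change of -0.97 (SE 0.106, 1.96-fold lower, limma adjusted p = 0.00097). A second probe set annotated to Mrpl23 gave a change of -0.95.

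Mrpl24, a neighbour of Mrpl23 on the tunnel rim, read 9.95, 9.94 and 9.93 in wild-type cells and 9.12 and 9.14 in Dicer-deficient cells. The groups did not overlap, and the SD was 0.01 in each. The change was -0.81 (SE 0.073, 1.75-fold lower, limma adjusted p = 0.00043), and between -0.82 and -0.80 as each array was left out. Mrpl47, the counterpart of bacterial L29, had a change of -0.60 and Mrpl45, which anchors the ribosome at the inner membrane, one of -0.49. The call of Mrpl47 was lost without either Dicer-deficient array (adjusted p up to 0.16). That of Mrpl45 was lost when wild-type array 2 or the second Dicer-deficient array was left out (up to 0.10). A second, dimmer probe set of Mrpl47 gave 0.03, so its 2 probe sets disagree. Mrpl22, also on the rim, had a change of -0.36 that was not called (adjusted p = 0.061), but was with arrays quantile normalized again (0.030).

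Mrpl17 stood apart from these neighbours. It read 7.71, 7.71 and 7.58 in wild-type cells and 8.09 and 8.03 in Dicer-deficient cells, with no overlap. Its change was 0.39 (SE 0.082, 1.31-fold higher, limma adjusted p = 0.015). The other member that rose was Mrpl14, a protein of the face that meets the small subunit, which read 7.30, 7.22 and 7.31 and then 7.66 and 7.62. Its change was 0.36 (SE 0.0769, limma adjusted p = 0.016), again with separate groups. Both calls were lost without wild-type array 2 or either Dicer-deficient array (adjusted p up to 0.13).

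The stalk, the flexible arm that recruits the translational GTPases, had its 3 classical members lower by like amounts. The changes were -0.46 for Mrpl10, the stalk base, -0.44 for Mrpl12, the mobile arm itself, and -0.43 for Mrpl11, which borders the GTPase site. In each of them both Dicer-deficient values lay below the wild-type range. Without each array in turn between 0 and 3 of them kept the call, 0 with either Dicer-deficient array left out, 1 with wild-type array 2 and 2 with wild-type array 1 left out, while their median change stayed between -0.49 and -0.45.

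Around the catalytic centre, where peptide bonds form, the members were mostly not called. Mrpl2 fell (change -0.49), a call lost without either Dicer-deficient array. The changes of Mrpl3, Mrpl4, Mrpl16 and Mrpl27 were 0.15, -0.28, -0.04 and 0.11, with adjusted p from 0.14 to 0.85. The 2 probe sets of Mrpl27 had changes of 0.11 and -0.08.

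Of 7 members listed here for the central protuberance, the crown of the large subunit that faces the small one, 4 fell. Mrpl18, the counterpart of the bacterial protein that holds 5S rRNA, read 10.21, 10.17 and 10.08 in wild-type cells and 9.49 and 9.51 in Dicer-deficient cells. The groups were separate, with a change of -0.65 (SE 0.0793, 1.57-fold lower, limma adjusted p = 0.0016). Mrpl52, found only in mitochondria, read 8.55, 8.54 and 8.39 and then 7.60 and 7.81. Its change was -0.79 (SE 0.0974, 1.73-fold lower, limma adjusted p = 0.0017), the groups being again separate. Mrpl55 and Mrpl40 fell by 0.61 and 0.44 on the log2 scale, and Mrpl38, Mrpl46 and Mrpl48 were not called. The call of Mrpl55 was lost without Dicer-deficient array 1 (0.057), that of Mrpl40 without any array but wild-type array 3 (up to 0.22).

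Mrpl52 is 1 of 3 members on chromosome 14, where 19.8% of 698 genes were called lower. The other members there, Mrpl57 and Mrps16, had changes of -0.26 and -0.11 and were not called. Without the 3 members of that chromosome, 27 of 74 fell and the median was -0.19. Members lay on 17 chromosomes, and called falls on 15 of them.

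Of the other large subunit members, Mrpl42 had the largest change. This mitochondria-specific protein read 7.69, 7.64 and 7.19 in wild-type cells and 6.45 and 6.66 in Dicer-deficient cells. The third wild-type value lay lowest of its group but above both Dicer-deficient values. The change was -0.95 (SE 0.156, 1.93-fold lower, limma adjusted p = 0.0057), and the call was lost without either Dicer-deficient array (up to 0.14). Mrpl36, the counterpart of bacterial L36, read 9.17, 9.07 and 8.89 and then 8.40 and 8.46. Its change was -0.61 (SE 0.0997, limma adjusted p = 0.0054), with no overlap, and its call was lost in the same fits (up to 0.10).

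Further falls in the large subunit were called for Mrpl20, Mrpl34, Mrpl28, Mrpl13, Mrpl9 and Mrpl39, with changes from -0.56 to -0.31. Each of these lost its call in at least 3 of the 5 fits that leave out 1 array, and Mrpl9 in all 5. Mrpl32, a short protein that is cut to its mature form by the m-AAA protease after import, had a change of 0.35 and Mrpl35 one of 0.20, neither called (adjusted p = 0.11 and 0.28). Mrpl58, a peptidyl-tRNA hydrolase that frees stalled ribosomes, had a change of -0.13 (adjusted p = 0.48). For Mrpl51 the brighter probe set gave -0.02 and the dimmer one 0.59. The large subunit members not named so far had changes from -0.26 (Mrpl21) to 0.07 (Mrpl19), and the calls of limma included none of them.

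**Figure D4:**
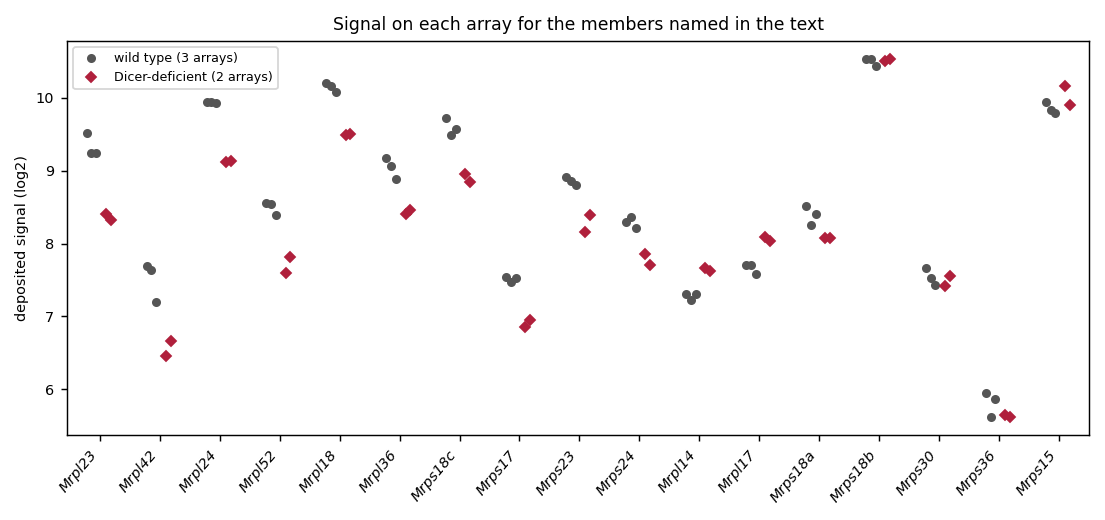
Deposited signal (log2) on each array for 17 members, grey circles for the 3 wild-type arrays and red diamonds for the 2 Dicer-deficient arrays. The groups are separate for the 10 called falls, for Mrps18a and, upward, for Mrpl14 and Mrpl17, and overlap for Mrps18b, Mrps30, Mrps36 and Mrps15; signals of different genes come from different probes and are not comparable levels.

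Among the small subunit members the Mrps18 paralogs, 3 genes related to 1 bacterial protein, had unlike changes. Mrps18c, which keeps the bacterial position, read 9.72, 9.49 and 9.57 in wild-type cells and 8.96 and 8.84 in Dicer-deficient cells. Its change was -0.69 (SE 0.0953, 1.62-fold lower, limma adjusted p = 0.0027), with separate groups. The call was lost without either Dicer-deficient array (up to 0.067). Mrps18b, which sits elsewhere in the small subunit, read 10.53, 10.53 and 10.44 and then 10.51 and 10.54, with a change of 0.03 (95% interval -0.15 to 0.20). Mrps18a, of the large subunit by position, read 8.52, 8.25 and 8.40 and then 8.07 and 8.07, with a change of -0.32 that was not called (adjusted p = 0.062), but was with arrays quantile normalized again (0.045) or dim genes left out (0.039).

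Mrps17, the counterpart of a bacterial protein that binds small subunit rRNA, read 7.54, 7.47 and 7.52 in wild-type cells and 6.85 and 6.95 in Dicer-deficient cells. The groups were separate by more than their own range. The change was -0.61 (SE 0.0783, 1.53-fold lower, limma adjusted p = 0.0020). Mrps23, specific to mitochondria, read 8.92, 8.86 and 8.81 and then 8.16 and 8.39, a change of -0.59 whose call was lost without Dicer-deficient array 1 (0.066). Mrps24, the counterpart of bacterial S3 at the mRNA entrance, read 8.29, 8.37 and 8.21 and then 7.85 and 7.70, a change of -0.52. Its call was lost without either Dicer-deficient array (up to 0.091).

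The remaining called small subunit members were Mrps21, Mrps26, Mrps11 and Mrps9, with changes from -0.49 to -0.29. Each lost its call in at least 2 of the 5 fits that leave out 1 array, and Mrps9 in all 5. Mrps12, the counterpart of the protein at the bacterial decoding site, had a change of -0.11 (adjusted p = 0.60), and Mrps2 had 0.00 with a 95% interval of -0.17 to 0.17. Mrps15 read 9.94, 9.84 and 9.80 and then 10.16 and 9.90, which overlapped. Mrps22 and Mrps6 had changes of 0.30 and 0.30, not called (adjusted p = 0.064 and 0.080), and both were called higher with arrays quantile normalized again (0.029 and 0.033). The small subunit members not named so far were not called either, with changes from -0.22 (Mrps31, called lower under array weights, adjusted p = 0.043) to 0.13 (Mrps7).

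Of 4 measured mitoribosomal proteins that carry other symbols, 1 was called. Chchd1 of the small subunit, on chromosome 14, fell by 0.38 on the log2 scale, and only the fit without wild-type array 3 kept that call (up to 0.14). The GTP-binding Dap3, the RNA-binding Ptcd3 and Gadd45gip1 had changes of -0.24, 0.21 and -0.10.

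Of 12 nuclear regulators connected with these sites or with mitochondrial gene activity, 3 rose and 0 fell by limma. By the same test, 0 were lower at an unadjusted p under 0.05. Of all genes, 8.48% were called higher and 8.60% lower. The median change over the 12 regulators was 0.007. It was 0.002 without Dicer-deficient array 1 and -0.05 without Dicer-deficient array 2. Whether these regulators act on the members' promoters was not tested. Gabpb2, a partner of GABPA, read 7.44, 7.66 and 7.39 in wild-type cells and 8.31 and 8.32 in Dicer-deficient cells (change 0.82, limma adjusted p = 0.0016). Mycn and Max, which bind the E-box, had changes of 0.52 and 0.47. Gabpb2 and Mycn lost their call without either Dicer-deficient array (up to 0.061), and Max also without wild-type array 2 (up to 0.13). Nrf1, Gabpa and Yy1 had changes of 0.02, -0.10 and 0.03, with adjusted p of 0.93, 0.58 and 0.90.

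Genes that build the mitochondrial ribosome were also lower where called. Of 27 assembly and rRNA modification genes, 6 fell and 0 rose by limma (2 were higher at an unadjusted p under 0.05), with a median of -0.22. The share called lower was 22.2%, against 8.60% of all genes. Gtpbp10, a GTPase of late large subunit assembly, read 7.83, 7.84 and 7.86 in wild-type cells and 7.01 and 6.99 in Dicer-deficient cells (change -0.84, limma adjusted p = 0.00038). Oxa1l, the inner membrane insertase that receives chains from the tunnel exit, had a change of -0.71 and Mtg1, another assembly GTPase, -0.67. Gtpbp10 and Oxa1l kept their call without each array in turn, and Mtg1 lost it without either Dicer-deficient array (up to 0.065). The others called were Mettl17, Mpv17l2 and Tfb1m, which lost it in 2 to 4 of the 5 fits (up to 0.20). Oxa1l and Mettl17 lie on chromosome 14.

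Translation factors moved in both directions: of 14, 4 fell and 3 rose, with a median of -0.10. The shares were 28.6% lower and 21.4% higher, against 8.60% and 8.48% of all genes. With dim genes left out, 16.9% of the remaining genes were called lower. Those that fell most were Taco1, an activator of COX1 translation (change -0.87), the recycling factor Gfm2 (-0.69) and the mRNA-binding Slirp (-0.64); Mtif2, an initiation factor, was the other. Those that rose were Mrrf, Mtif3 and Mtrf1l, which act in recycling, initiation and release, each with a change of 0.46. Gfm2 kept its call without each array in turn. Taco1 lost it without either Dicer-deficient array (up to 0.086), Slirp without array 2 (0.058) and Mtif2 without array 1 (0.057), and the 3 that rose in 3 or 4 of the 5 fits (up to 0.29).

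Of 19 mitochondrial aminoacyl-tRNA synthetase genes, which charge the tRNAs, 2 fell (Rars2 and Hars2) and 1 rose (Wars2, change 0.49), with a median of -0.07. The shares, 10.5% lower and 5.26% higher, were near those of all genes (8.60% and 8.48%). All 3 calls were lost without Dicer-deficient array 1, and in 2 to 4 of the 5 fits (up to 0.20). Of 13 genes of mitochondrial DNA transcription and upkeep, 3 fell and 1 rose, with a median of -0.05. The shares were 23.1% lower and 7.69% higher, against 8.60% and 8.48% of all genes, and 16.9% lower among genes left in the fit without dim genes. Tfam, which packages the DNA and starts transcription, had a change of -0.82 (lost without either Dicer-deficient array, up to 0.078). Ssbp1, which coats single-stranded DNA, had -0.62 and kept its call without each array. Twnk had -0.36 and Tfb2m, which rose, 0.37, with calls lost in 4 and 5 of the 5 fits (up to 0.27).

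Proteins of the cytosolic ribosome are the nearest comparison in function. Of 57 with a probe set of their own, 15 fell and 0 rose by limma (0 were higher at an unadjusted p under 0.05), a share of 26.3% lower, with a median change of -0.20. The members had 36.4% lower and a median of -0.19. Without each array in turn the lower calls ranged from 1 to 14 for the cytosolic set and from 7 to 26 for the mitochondrial one. Falls of at least 1.5-fold were called for 1 of the 57 and 11 of the 77. The fitted change was below 0 for 55 of the 57 and 63 of the 77. Both Dicer-deficient values lay below all wild-type values for 42 and 46, a pattern seen in 19.9% of all genes. At an unadjusted p under 0.05 by limma, 32 and 37 were lower. No test compared the sets.

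**Figure D5:**
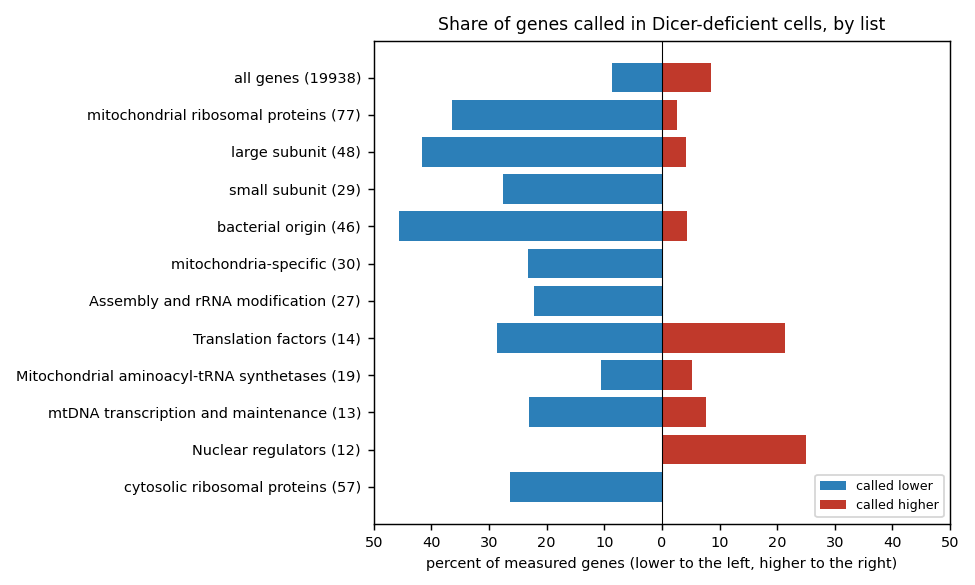
Percent of measured genes called lower (blue, to the left) and higher (red, to the right) in Dicer-deficient cells for all genes, the members and their groupings, and lists of related genes, with the number measured in brackets. Mitochondrial ribosomal proteins stand at 36.4% lower and 2.60% higher, all genes at 8.60% and 8.48%.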

How the data were processed

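The authors deposited 1 table of normalized signals, 35556 probe sets by 5 arrays, read here as log2 from their range. Total RNA was labelled by Affymetrix's whole-transcript assay with biotin, per the labels' protocols. Background correction, summarisation, normalization and log base are not given in the sources used here, and another base would rescale all changes. Probe sets were named from the platform annotation: 21789 had 1 symbol, 1621 several and 12146 none. Coordinates come from GRCm38.p6 tables.

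Arrays were grouped by title. limma's lmFit and eBayes tested Dicer-deficient minus wild type over 19938 genes, two-sided, Benjamini-Hochberg at 0.05, with 3 residual and 4.54 prior degrees of freedom. The fit was tested on simulated data. An exact permutation of 3 against 2 arrays cannot reach p = 0.05, and none was run. SDs are between arrays, SEs limma's moderated ones.

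Members and lists were chosen with earlier results of these data known. Named with values on each array are the 6 large and 4 small subunit members with the largest called falls, called rises, the 3 with the highest mean signal, the Mrps18 paralogs, Mrps30 and Mrps36, and up to 3 called genes per list; others were named after their values were seen. Alternatives covered normalization, centring, dim genes, variance moderation, array weights, a replicate block, each array left out, probe set choice, fold and subunit assignment. Tools were R 4.3.3, limma 3.58.1, Python 3.11.15, pandas 2.3.3, numpy 2.4.6 and matplotlib 3.10.9.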

Additional observations from a re-analysis of the deposited data

How the results depend on the processing

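Counts of lower calls among the members stayed within 1.5 times of the reported ones with another quantile normalization, median centring, dim genes left out, an intensity trend, robust moderation, array weights and averaged probe sets. Median centring ended the calls of Mrpl39 and Mrps9 (adjusted p = 0.055 and 0.051). Called higher were 4 members, 2 of them in the small subunit, after quantile normalization, and 1 small subunit member with dim genes left out. With the replicate number as a block, all genes gave 477 higher and 417 lower. The members then gave 6 lower (5 large, 1 small) and 0 higher, 0 of them large. In that fit wild-type array 3 is alone in its block and does not bear on the change. The median over members was -0.245, the same as without that array. Fewer residual degrees of freedom remain than in the main fit, so the smaller number of calls does not measure a batch. Deviations of same-numbered arrays from their group means had correlations of 0.0492 (number 1) and 0.00528 (number 2). With 2 Dicer-deficient arrays, the deviations of the second mirror those of the first, so these are not separate checks. Whether same-numbered arrays share a batch cannot be told from them. With a change of at least 1.5-fold required, all genes gave 855 and 626, and the members 11 lower (8 large, 3 small) and 0 higher, 0 of them large. Leaving out each array gave 536 to 1396 higher and 434 to 1560 lower genes, 7 to 26 lower members (5 to 19 large, 1 to 7 small), 0 to 2 higher (0 to 2 large, 0 small), and a large minus small difference of -0.125 to -0.005. The median change over members ran from -0.25 to -0.17 in these fits. No called member changed sign under these alternatives. Of the members not called, 13 did in at least 1, each with a reported change of at most 0.08 in size, among them Mrpl51 (0.01 after quantile normalization) and Mrpl16 (0.015 without wild-type array 2). With the second Dicer-deficient array left out, median changes were -0.27 for large and -0.15 for small subunit members. They were -0.27 and -0.22 for bacterial and mitochondria-specific members. With the first left out, the medians were -0.17 and -0.17 by subunit and -0.23 and -0.13 by descent. With subunits assigned by position the difference of medians was -0.11. Signal over background was not analysed here.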
